A study of Mus musculus with 6 samples.

Results

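Nuclear genes for mitochondrial protein import and for the shaping of cristae, the folds of the inner membrane, were followed in the biceps of young CD-1 mice after loss of the nerve. Members were taken by symbol from the deposited table of 13105 expressed genes. They are the protein-coding genes whose symbols start with Timm, Tomm or Chchd followed by a digit, together with Immt, Apool, Samm50, Pmpca, Pmpcb, Pam16, Dnlz, Grpel1, Grpel2 and Opa1. The rule used no measured value and found 39 members. All 39 passed the filter on low values, but Chchd6 passed it only through its denervated libraries.

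The 3 denervated libraries came from whole biceps of forelimbs whose brachial plexus, from C5 to T1, had been cut out on postnatal day 5. The 3 contralateral control libraries came from the other biceps of the same 3 mice, so the control side also belonged to an operated animal. Both muscles were frozen on postnatal day 26, 3 weeks after the injury, while the mice were growing. The series sets denervated muscle, whose growth had been arrested, against muscle that went on growing. Tomm20 is not analysed here.

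Almost all mitochondrial proteins are made in the cytosol and have to be imported. The TOM complex of the outer membrane takes them in, small TIM chaperones guide some across the intermembrane space, and the TIM22 and TIM23 complexes insert or pull them through the inner membrane with the help of a heat shock protein motor. Presequences are then cut off by the processing peptidase, while SAM builds barrel proteins into the outer membrane and MICOS, with Opa1, holds the necks of the cristae.

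Values are TPM, a relative transcript abundance corrected for length and scaled to a fixed total of 1000000 per library, read from the deposited log2(TPM + 1) values. The median of all 12268 tested genes stood 0.71 higher in denervated libraries on the deposited log2 scale. Fold changes are therefore also given after median-of-ratios scaling, which brings that median to 0.01. Rises and falls are stated only for genes with a limma call of the same sign both before and after scaling, at an adjusted p under 0.05. All 1922 genes called higher after scaling were also called higher before it, and all 552 called lower before scaling also after it. A rise was thus decided by the scaled fit and a fall by the deposited fit. Depth per gene is unknown, since the files give no read counts. The listed genes held 77.3% to 80.3% of the full TPM total in denervated libraries and 68.8% to 70.4% in control libraries, and the first denervated library had the largest size factor (1.60, against 1.27 in the other two).

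Muscle fibre markers were abundant in all 6 libraries, with a summed level of 18166 to 23728 TPM over 8 genes in denervated muscle and 26123 to 30993 TPM in control muscle. In this list 0 genes rose and 6 fell. Over all tested genes 15.7% rose and 4.5% fell, and these shares stand beside each count in this paragraph. Markers of other cells moved as well. All 6 adipocyte markers were measured and 3 rose (408.6 to 859.2 TPM summed in denervated and 199 to 301 TPM in control muscle). Of 5 tested satellite cell markers 3 rose (22.9 to 31.1 and 9.12 to 10.4 TPM), and of 3 tested markers of myelinating Schwann cells 2 fell (41.2 to 59.8 and 69.9 to 157 TPM). No endothelial, macrophage, fibroblast or erythroid marker was called on both scales, among 6, 4, 6 and 3 tested. No listed marker was at 0 throughout a group. All 13 transcripts of the mitochondrial genome, which can also reflect RNA quality, were measured and 11 fell. The part of these shifts in the results below was not tested.

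Relative to the typical gene, most import and cristae genes stood lower in denervated muscle, and few of them were called on both scales. On the deposited scale 18 of 39 members (46.2%) were called higher and 3 (7.69%) lower, where 69.9% of all tested genes were called higher and 4.5% lower. After scaling 2 members (5.13%) were called higher and 25 (64.1%) lower, against 15.7% and 18.6% of all tested genes. The members' median log2 fold change was 0.40 on the deposited scale and -0.43 after scaling. On both scales Tomm34 and Chchd6 rose and Chchd10, Chchd3 and Timm21 fell. That is 2 and 3 of 39, beside a background of 15.7% and 4.5% of all tested genes. Chchd6 passed the filter only through its denervated libraries, so its rise is a description and lends no support to the count. In TPM, 23 members lay above the control group in all denervated libraries and 6 below it (71.4% and 4.96% of all tested genes), and after scaling 2 lay above and 30 below (24.3% and 24.4%). None of the 39 stands in the authors' deposited lists of 336 genes up and 21 genes down. With lists this short beside 13105 genes, that says little about 39 members. The lists are labelled by a fold limit, so absence from them does not mean no change. The up list is labelled 2-fold, yet Tomm34 and Timm17b, with deposited log2 fold changes of 1.28 and 1.06, are absent. How the lists were cut is therefore unclear. In whole muscle, fewer cells of a type and less RNA per cell cannot be told apart.

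**Figure D1:**
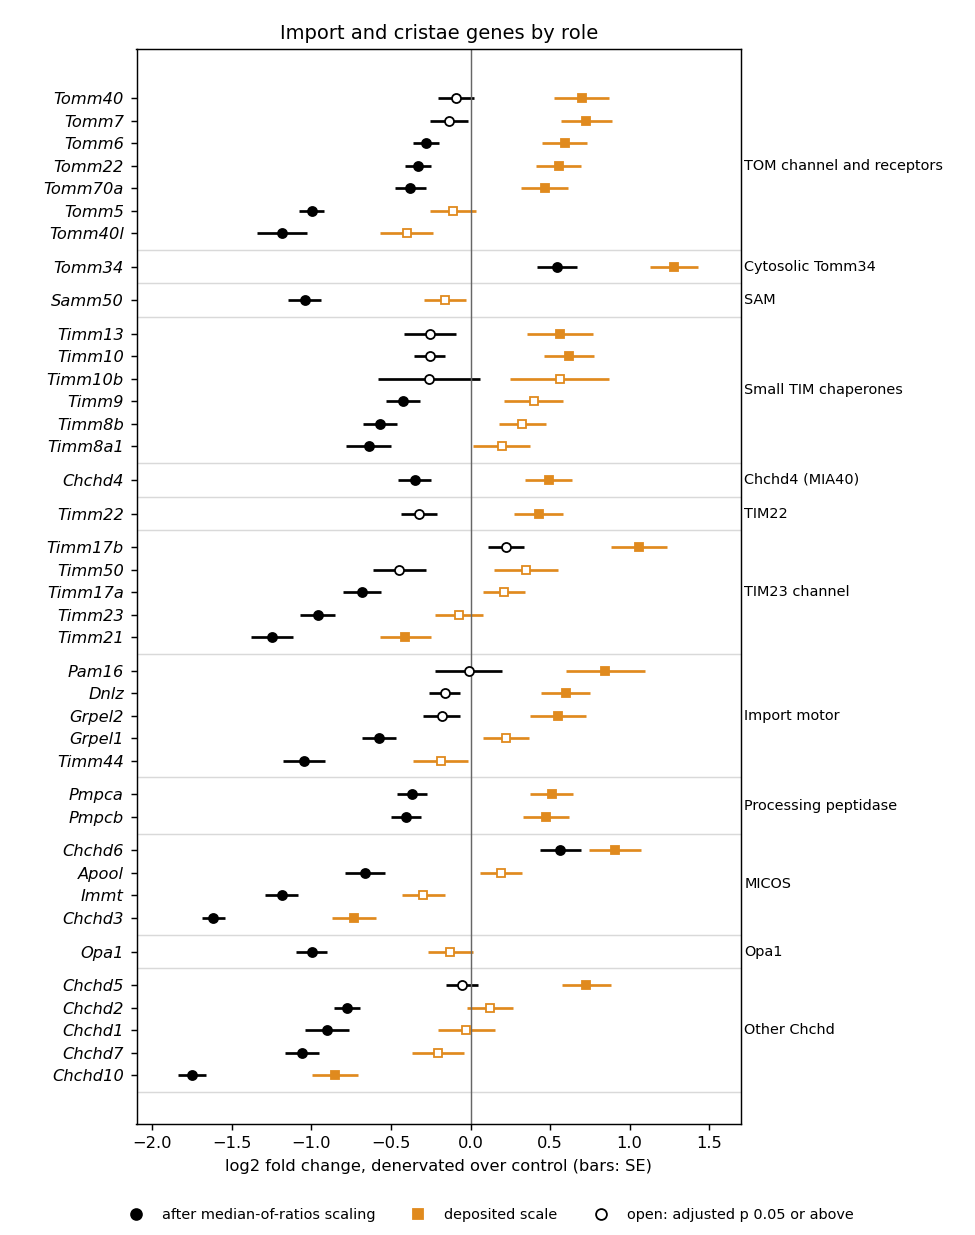
The log2 fold change of each of the 39 members, denervated over control, with its SE, grouped by role. Squares are on the deposited scale, circles after median-of-ratios scaling, and filled symbols passed the limma threshold. Chchd10 and Chchd3 lie farthest to the left on both scales, and Tomm34 lies farthest to the right on the deposited scale.

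Chchd10 was the most abundant member in control muscle and fell the most. It encodes a small intermembrane space protein with paired cysteine motifs that is tied to cristae upkeep, and mutations of its human counterpart cause mitochondrial myopathy and motor neuron disease. Chchd10 (ENSMUSG00000049422, chr10:75933130-75937747, plus strand, GRCm38) measured 372, 315 and 317 TPM in denervated mice 1, 2 and 3, against 610, 673 and 537 TPM in their control muscles. The groups did not overlap, and the denervated muscle was lower in each mouse. The log2 fold change was -0.85 ± 0.15 (SE, limma adjusted p = 8.59e-04) on the deposited scale and -1.75 ± 0.09 (adjusted p = 1.92e-05) after scaling.

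Chchd3, a MICOS subunit that binds mitofilin, showed the same direction. It measured 56.7, 47.1 and 47.6 TPM in denervated muscle and 82.4, 90.8 and 79.8 TPM in control muscle. All 3 denervated values lay below all 3 control values. The log2 fold change of Chchd3 was -0.73 ± 0.14 (SE, limma adjusted p = 0.00138) on the deposited scale and -1.62 ± 0.07 (adjusted p = 1.74e-05) after scaling. The calls of Chchd10 and Chchd3 held on both scales without any 1 library and without any 1 mouse.

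Because both genes fell clearly, the 250 bases before their starts are shown with those of the genes that rose, Chchd6 and Tomm34 (RefSeq, GRCm38.p6). Capitals mark matches, on either strand, to motifs of factors known from mitochondrial genes: CCGGAAG, the core bound by GABPA and other ETS factors, and AAGGTCA, bound by oestrogen-related receptors. The longer motifs of NRF1 and YY1 were searched too and have no match in these windows. Chchd10 lies at chr10:75932880-75933129 on the plus strand, Chchd3 at chr6:33060261-33060510, Chchd6 at chr6:89595653-89595902 and Tomm34 at chr2:164071103-164071352, these 3 on the minus strand.
Chchd10: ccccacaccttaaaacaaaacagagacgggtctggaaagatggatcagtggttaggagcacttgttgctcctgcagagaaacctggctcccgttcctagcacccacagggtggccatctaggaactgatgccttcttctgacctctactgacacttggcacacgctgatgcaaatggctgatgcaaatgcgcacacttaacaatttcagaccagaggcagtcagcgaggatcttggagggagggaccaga
Chchd3: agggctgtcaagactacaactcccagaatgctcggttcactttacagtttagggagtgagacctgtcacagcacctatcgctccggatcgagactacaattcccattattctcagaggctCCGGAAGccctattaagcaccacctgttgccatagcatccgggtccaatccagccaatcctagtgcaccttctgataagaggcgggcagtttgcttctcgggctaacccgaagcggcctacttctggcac
Chchd6: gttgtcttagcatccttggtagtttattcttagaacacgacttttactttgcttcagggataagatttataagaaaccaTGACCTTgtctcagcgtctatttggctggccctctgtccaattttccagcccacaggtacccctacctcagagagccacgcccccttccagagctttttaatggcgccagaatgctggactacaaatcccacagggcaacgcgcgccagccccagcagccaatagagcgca
Tomm34: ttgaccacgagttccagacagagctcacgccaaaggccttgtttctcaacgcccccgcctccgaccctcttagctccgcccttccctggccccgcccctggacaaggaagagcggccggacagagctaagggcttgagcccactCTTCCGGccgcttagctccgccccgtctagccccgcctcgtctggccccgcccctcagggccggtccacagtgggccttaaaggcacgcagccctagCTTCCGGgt
The Chchd10 window holds none of these letters, the Chchd3 window holds 1 ETS match, the Chchd6 window 1 match to the receptor motif and the Tomm34 window 2 ETS matches. RefSeq gives 2 starts for Tomm34, and the window of the start not printed (chr2:164071120-164071419) holds 1 ETS match.

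Windows of 300 bases, from 250 before to 50 after the start, were found in RefSeq for 33 of the 39 members, some with 2 starts. The ETS letters stood in 15 of these 35 windows (42.9%), against 8.86% of all 32851 RefSeq windows and 16.9% of the 11115 windows of genes tested here. The NRF1 motif stood in 5 (14.3%, against 4.60% and 9.91%), the receptor motif in 4 (11.4%, against 4.72% and 3.27%) and the YY1 motif in 1 (2.86%, against 0.633% and 1.53%).

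**Figure D2:**
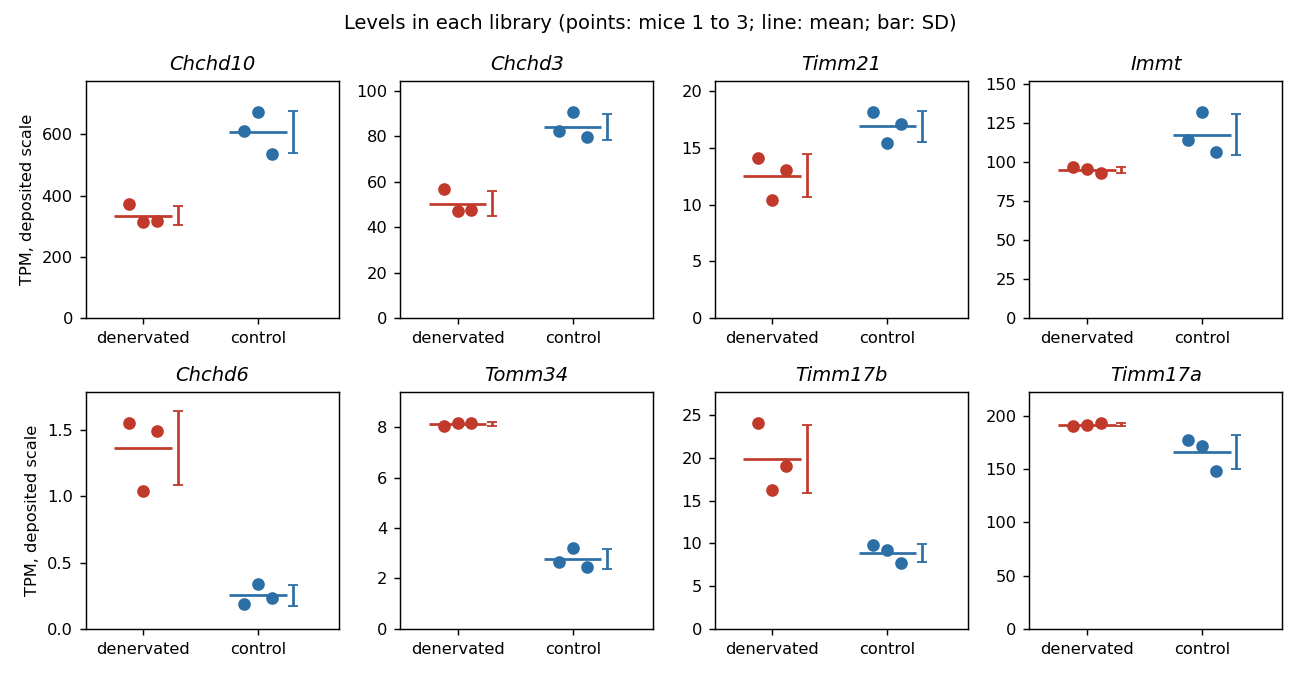
TPM on the deposited scale in each library for 8 members, denervated left of control. Points are mice 1 to 3, lines are means and bars are SDs. Chchd10, Chchd3, Timm21 and Immt lie lower in all denervated libraries, and Chchd6, Tomm34, Timm17b and Timm17a higher.

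MICOS subunits and cristae genes stood lower than the typical gene, with 1 exception. Of the 4 MICOS members 1 fell and 1 rose (4.5% and 15.7% of all tested genes), and 3 were called lower after scaling (18.6%). Immt encodes mitofilin, the core scaffold of the complex. It measured 96.9, 95.6 and 93.0 TPM in denervated and 114, 132 and 107 TPM in control muscle, which did not overlap. Its log2 fold change of -0.30 missed the threshold on the deposited scale (limma adjusted p = 0.0703) and came to -1.19 after scaling (adjusted p = 1.84e-04).

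Chchd6, the relative of Chchd3 within MICOS, was near the floor of the table. As it passed the filter only through its denervated libraries, its p-values are descriptive. It measured 1.55, 1.04 and 1.49 TPM in denervated and 0.191, 0.340 and 0.229 TPM in control muscle. Its log2 fold change came to 0.91 ± 0.16 (SE, limma adjusted p = 0.00103) or 0.57 ± 0.13 after scaling (adjusted p = 0.0142). All 3 denervated values exceeded all 3 control values. At such low levels the size depends on the pseudocount, with 2.05 on the deposited scale and 1.31 after scaling at a pseudocount of 0.1, and 0.28 and 0.16 at 5. The scaled call of Chchd6 was lost without denervated library 3 (adjusted p = 0.0543) and without mouse 1 or mouse 3 (0.110 and 0.122). Apool, a lipid-binding MICOS subunit, averaged 20.1 ± 0.225 TPM in denervated and 17.5 ± 1.28 TPM in control muscle (SD, n = 3 each).

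Opa1 encodes the dynamin-related GTPase that fuses inner membranes and narrows the cristae. It measured 33.2, 27.5 and 27.3 TPM in denervated and 33.1, 30.4 and 32.5 TPM in control muscle, so the groups overlapped. Its log2 fold change was -0.13 (limma adjusted p = 0.423) on the deposited scale and -1.0 after scaling (adjusted p = 3.08e-04).

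Genes of cristae and fusion outside the symbol rule were read from a list of import and membrane partners. Apoo, a MICOS subunit related to Apool, measured 93.0, 73.2 and 85.6 TPM in denervated and 129, 135 and 126 TPM in control muscle. Minos1, which encodes the membrane-bending MICOS subunit Mic10, measured 264, 216 and 235 TPM in denervated and 378, 349 and 317 TPM in control muscle. Both fell, with log2 fold changes of -0.63 and -0.55 on the deposited scale (limma adjusted p = 0.00300 and 0.00685) and of -1.52 and -1.44 after scaling. Mfn1, mitofusin 1 of the outer membrane, fell too, with 22.8, 20.4 and 20.6 TPM in denervated and 37.0, 30.5 and 35.2 TPM in control muscle (log2 fold change -0.66, limma adjusted p = 0.00255, scaled -1.52). Mfn2, 2410015M20Rik (Micos13) and Dnajc11 of the same list were not called on both scales. Mfn2 averaged 32.2 TPM in denervated and 38.5 TPM in control muscle (-0.25, scaled -1.12). For 2410015M20Rik the means were 43.0 and 33.7 TPM (0.32, scaled -0.56). Dnajc11, at 11.5 and 7.28 TPM, was called higher on the deposited scale alone (0.59, scaled -0.22).

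The remaining Chchd genes did not move as one. Chchd2, the closest relative of Chchd10, measured 375, 292 and 305 TPM in denervated and 308, 306 and 275 TPM in control muscle, with overlapping groups. Its log2 fold change came to 0.12 (limma adjusted p = 0.457), and to -0.78 after scaling. Chchd1, a subunit of the mitochondrial ribosome, and Chchd7 were also called lower after scaling alone (-0.90 and -1.06). Chchd5 measured 9.75, 8.32 and 8.70 TPM in denervated and 5.14, 5.47 and 4.40 TPM in control muscle, and was called higher on the deposited scale alone (0.73, or -0.05 after scaling). Of the 31-base words in Chchd2 transcripts, 21.0% also occur in other genes, so part of its level is uncertain.

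At the outer membrane, Tomm40 and Tomm7 stayed nearest to the typical gene among the 7 TOM subunits, Tomm34 left aside. None of the 7 rose or fell, 5 were called higher on the deposited scale (69.9% of all tested genes) and 5 lower after scaling (18.6% of all tested genes). Tomm22, the central receptor, measured 80.7, 63.0 and 68.9 TPM in denervated and 48.9, 48.5 and 45.7 TPM in control muscle (log2 fold change 0.55, scaled -0.33). Tomm40, the channel itself, measured 11.3, 9.51 and 8.55 TPM in denervated and 5.60, 6.64 and 4.70 TPM in control muscle (0.70, scaled -0.09). Tomm70a, the receptor for carrier proteins, measured 20.2, 17.0 and 16.5 TPM in denervated and 11.5, 13.2 and 13.3 TPM in control muscle (0.46, scaled -0.38). All 3 were called higher on the deposited scale with no overlap of the groups, and Tomm22 and Tomm70a were called lower after scaling.

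Tomm40l, a paralog of the channel protein, had the opposite sign on the deposited scale. It measured 5.95, 7.40 and 5.10 TPM in denervated and 8.91, 8.74 and 7.52 TPM in control muscle. Its groups did not overlap, and its log2 fold change was -0.40 on the deposited scale (limma adjusted p = 0.0535, and 0.0497 when mice were paired as blocks) and -1.19 (adjusted p = 0.00117) after scaling. The exons of Tomm40l are overlapped over 64.3% of their length by Nr1i3 on the opposite strand, and the labels name no step that keeps strand, so its level is uncertain. The small subunits Tomm5, Tomm6 and Tomm7 averaged 71.4, 35.8 and 30.3 TPM in denervated and 76.7, 23.3 and 17.9 TPM in control muscle. Tomm6 shares 77.3% of its 31-base words with other genes, most of them with the overlapping Gm21981.

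Tomm34 carries the family name but encodes a cytosolic co-chaperone that binds Hsp70 and Hsp90. It and Chchd6 were the members that rose. It measured 8.05, 8.17 and 8.14 TPM in denervated and 2.67, 3.21 and 2.44 TPM in control muscle, with no overlap. The log2 fold change was 1.28 ± 0.15 (SE, limma adjusted p = 1.55e-04) on the deposited scale and 0.54 ± 0.12 (adjusted p = 0.0140) after scaling. The scaled call was lost without denervated library 2 or 3 (adjusted p = 0.0523 and 0.0525) and without mouse 2 or mouse 3 (0.0577 and 0.134). Samm50, the core of the SAM complex, measured 43.9, 44.8 and 40.5 TPM in denervated and 48.5, 51.1 and 45.5 TPM in control muscle. The log2 difference was -0.16 (adjusted p = 0.276), and -1.04 after scaling (adjusted p = 3.31e-04).

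In the intermembrane space, 0 of 6 small TIM chaperones rose or fell, while 2 were called higher on the deposited scale (69.9% of all tested genes) and 3 lower after scaling (18.6%). The most abundant, Timm8b, averaged 195 ± 24.5 TPM in denervated and 155 ± 16.3 TPM in control muscle (SD, n = 3 each). In the fit with mice as blocks it was called higher on the deposited scale (limma adjusted p = 0.0331, against 0.0709 without), as was Timm10b (0.00901, against 0.124). After scaling Timm8b was called lower (-0.57, adjusted p = 0.00548). Timm10, which carries precursors together with Timm9, averaged 47.8 TPM in denervated and 30.7 TPM in control muscle, and Timm9 12.6 and 9.12 TPM. Timm13 and Timm8a1 completed the group at 12.8 and 13.8 TPM in denervated and 8.47 and 11.8 TPM in control muscle. Of the 31-base words in Timm8a1 transcripts 41.8% occur in other genes, so its level and its ratio to Timm8b are uncertain. Chchd4, the oxidoreductase MIA40 that folds the cysteine-rich proteins of this space, measured 19.0, 18.3 and 17.2 TPM in denervated and 11.8, 14.6 and 11.6 TPM in control muscle. It was called higher on the deposited scale (0.49) and lower after scaling (-0.35).

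Among the channels of the inner membrane only Timm21 was called in 1 direction on both scales. Timm21 encodes a subunit that, in yeast, links the TIM23 channel to the respiratory chain. It measured 14.1, 10.4 and 13.1 TPM in denervated and 18.2, 15.4 and 17.1 TPM in control muscle, with no overlap. Its log2 fold change was -0.41 ± 0.16 (SE, limma adjusted p = 0.0392) on the deposited scale and -1.25 ± 0.13 (adjusted p = 4.12e-04) after scaling. The deposited-scale call of Timm21 was lost without denervated library 2 or 3, without control library 1 or 3 and without any 1 of the mice (largest adjusted p = 0.150).

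Timm17a and Timm17b are alternative subunits of the same channel. Timm17b measured 24.1, 16.3 and 19.1 TPM in denervated and 9.81, 9.18 and 7.76 TPM in control muscle. This was a log2 difference of 1.06 (limma adjusted p = 7.11e-04) or 0.22 after scaling (adjusted p = 0.171). Timm17a measured 191, 191 and 194 TPM in denervated and 178, 172 and 148 TPM in control muscle. This was a log2 difference of 0.21 (adjusted p = 0.168) or -0.68 after scaling (adjusted p = 0.00450). Neither passed the threshold in 1 direction on both scales, although the groups of each did not overlap in TPM.

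The pore subunit Timm23 measured 73.6, 59.9 and 63.7 TPM in denervated and 78.5, 68.0 and 61.5 TPM in control muscle, and 63.5% of its 31-base words occur in other genes, most of them in Gm10273. The receptor Timm50 measured 10.7, 8.21 and 8.06 TPM in denervated and 4.95, 8.39 and 7.45 TPM in control muscle. Both genes had overlapping groups, with log2 fold changes of -0.07 and 0.35 on the deposited scale and of -0.96 and -0.45 after scaling. Timm22, the channel for carrier proteins, measured 6.60, 6.42 and 5.32 TPM in denervated and 4.50, 4.28 and 4.02 TPM in control muscle (0.43, scaled -0.32).

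No member of the import motor or the peptidase was called with the same sign on both scales. Timm44, which docks the motor at the channel, measured 21.9, 14.9 and 20.2 TPM in denervated and 19.4, 22.4 and 22.8 TPM in control muscle (log2 fold change -0.19, scaled -1.05). Its groups overlapped on the deposited scale. Grpel1 and Grpel2, the nucleotide exchange factors of the motor, measured 9.24, 8.01 and 8.71 TPM and 6.62, 4.26 and 5.36 TPM in denervated muscle. In control muscle Grpel1 measured 7.68, 7.06 and 7.06 TPM and Grpel2 3.17, 3.48 and 3.36 TPM. Grpel2 was called higher on the deposited scale (0.55) and Grpel1 lower after scaling (-0.58).

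Pam16, a regulator of the motor, measured 40.1, 25.3 and 21.7 TPM in denervated and 20.3, 13.7 and 12.5 TPM in control muscle, without overlap (0.85, scaled -0.01). Dnlz, a helper of the motor's heat shock protein, averaged 7.17 ± 0.574 TPM in denervated and 4.40 ± 0.507 TPM in control muscle (SD, n = 3 each). Of the 31-base words in Pam16 transcripts 36.5% occur in other genes. The processing peptidase has an alpha and a beta subunit, Pmpca and Pmpcb, which took similar values. Pmpca measured 48.7, 45.3 and 40.8 TPM in denervated and 31.2, 31.6 and 30.8 TPM in control muscle, and Pmpcb 57.6, 45.0 and 54.3 TPM in denervated and 36.1, 40.0 and 35.5 TPM in control muscle. Both were called higher on the deposited scale (0.51 and 0.47) and lower after scaling (-0.37 and -0.41).

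Ratios of related genes within a library do not depend on how that library is scaled, and 5 of 7 pairs separated the groups. The pair of Chchd6 and Chchd3 is among them, and Chchd6 passed the filter only through its denervated libraries. Its separation is a description and lends no support to the count. How often ratios of other gene pairs separate was not computed. As single genes, 71.4% of all tested genes lay above the control group in TPM and 4.96% below. Chchd10 stood at 0.993, 1.08 and 1.04 times Chchd2 in denervated muscle and at 1.98, 2.20 and 1.95 times in control muscle, a log2 difference of -0.98. Timm17a stood at 7.89, 11.7 and 10.1 times Timm17b in denervated and at 18.1, 18.7 and 19.1 times in control muscle (-0.93). The ratio of Tomm40l to Tomm40 was 0.528, 0.777 and 0.596 in denervated and 1.59, 1.32 and 1.60 in control muscle (-1.26). These 3 ratios were lower in each denervated muscle than in any control muscle. The ratio with Tomm40l is uncertain, since Nr1i3 overlaps 64.3% of the length of its exons. The ratio with Chchd2 is uncertain in part, since 21.0% of its 31-base words occur in other genes.

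The ratio of Grpel1 to Grpel2 was 1.40, 1.88 and 1.62 in denervated and 2.42, 2.03 and 2.10 in control muscle (-0.42). Chchd6 stood at 0.0221 to 0.0314 times Chchd3 in denervated and at 0.00232 to 0.00374 times in control muscle, a log2 difference of 3.19 that came to 1.64 with a pseudocount of 1, since Chchd6 was under 1 TPM in all control libraries. Each of these 5 pairs had an exact two-sided permutation p of 0.10, the smallest that 3 against 3 libraries allow (0.14 adjusted over the 7 pairs), so none could pass 0.05. Pmpca and Pmpcb (0.04, exact permutation p = 0.90) and Timm8a1 and Timm8b (-0.12, exact permutation p = 0.40) had overlapping ratios. The permutations did not use the pairing of muscles within a mouse.

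**Figure D3:**
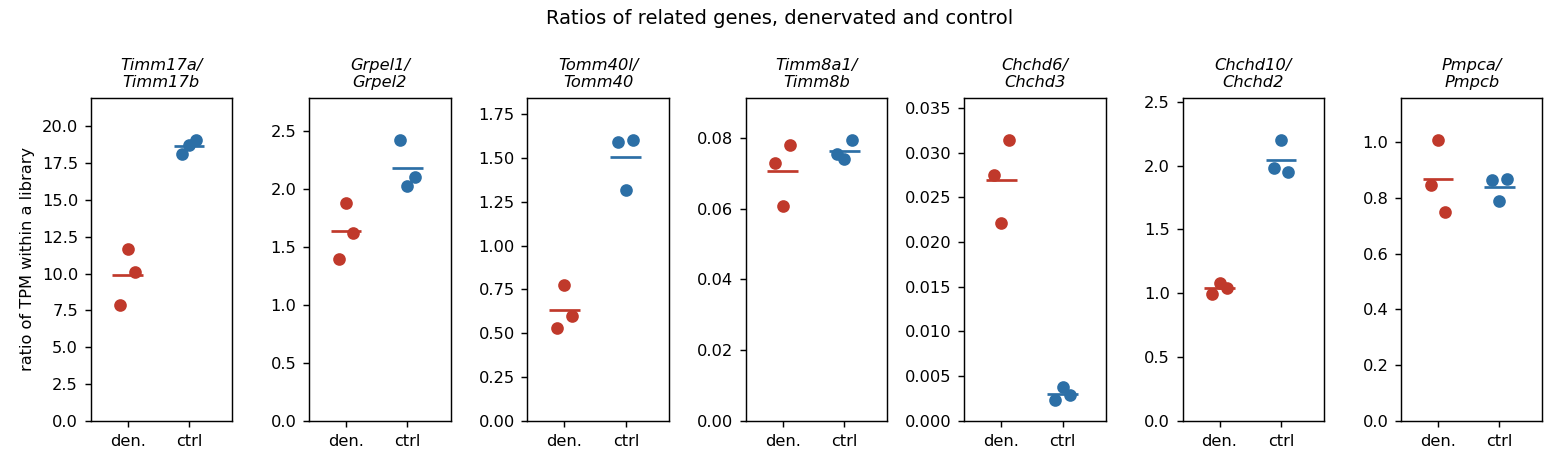
Ratio of TPM between 2 related genes within each library, denervated left of control, on axes that start at 0. Points are mice 1 to 3 and lines are means. The groups are apart for Timm17a/Timm17b, Grpel1/Grpel2, Tomm40l/Tomm40, Chchd6/Chchd3 and Chchd10/Chchd2, and overlap for the other 2 pairs.

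Chchd10 took a smaller share of the group's transcripts, which restates its fall in TPM and is no separate support. It held 16.7%, 17.0% and 16.6% of the members' summed TPM in denervated muscle and 28.3%, 30.6% and 27.9% in control muscle (exact two-sided permutation p = 0.10, the smallest possible, and 0.13 adjusted over 39 members). Most other members reached the same smallest p, some with a larger and some with a smaller share, so a separated share is not particular to Chchd10. Chchd3 held 2.54%, 2.55% and 2.49% in denervated and 3.83%, 4.13% and 4.15% in control muscle. A share lost by 1 gene is gained by others. With Chchd10 left out of the sum, Chchd3 still held 3.03% in denervated and 5.68% in control muscle, while Chchd2 held 19.4% and 19.9%. The summed level of all 39 overlapped, at 1851 to 2235 TPM in denervated and 1923 to 2199 TPM in control muscle.

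Other genes of import, membrane insertion, quality control and membrane fusion formed a list of 50 symbols, 3 of them alternative names of listed genes, and 47 were in the table and tested. On both scales 1 rose (2.13%, against 15.7% of all tested genes) and 3 fell (6.38%, against 4.5%). On the deposited scale 19 (40.4%, against 69.9%) were called higher and after scaling 29 (61.7%, against 18.6%) lower, with median log2 fold changes of 0.31 and -0.56. The falls were those of Mfn1, Apoo and Minos1. Mtch1, related to the outer membrane insertase Mtch2, rose, with 56.2, 48.1 and 38.2 TPM in denervated and 16.6, 17.6 and 18.4 TPM in control muscle (log2 fold change 1.37, limma adjusted p = 1.57e-04, scaled 0.50). No partner was called higher on both scales without denervated library 1 or 2, or without mouse 1 or 2, so the call of Mtch1 was lost there. Hspa9, the heat shock protein of the motor, measured 78.8, 70.1 and 75.9 TPM in denervated and 76.6, 75.8 and 76.8 TPM in control muscle.

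Set beside other nuclear genes of the mitochondrion, the members lay close to the ribosomal proteins and less low than the respiratory chain. Of 79 nuclear subunits of respiratory complexes 58 fell (73.4%) and 0 rose, with a median of -1.47 after scaling. Of 77 mitochondrial ribosomal proteins 4 fell (5.19%) and 0 rose, with a scaled median of -0.66. Of the 39 members 3 fell (7.69%) and 2 rose (5.13%), with a scaled median of -0.43. Over all tested genes 4.5% fell and 15.7% rose, so the ribosomal share of falls was near that of all genes. The summed TPM of the members equalled 8.75%, 6.89% and 7.15% of the summed TPM of those respiratory subunits in denervated muscle and 5.80%, 5.96% and 4.90% in control muscle. These are descriptions of the groups, and the differences between groups of genes were not tested.

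**Figure D4:**
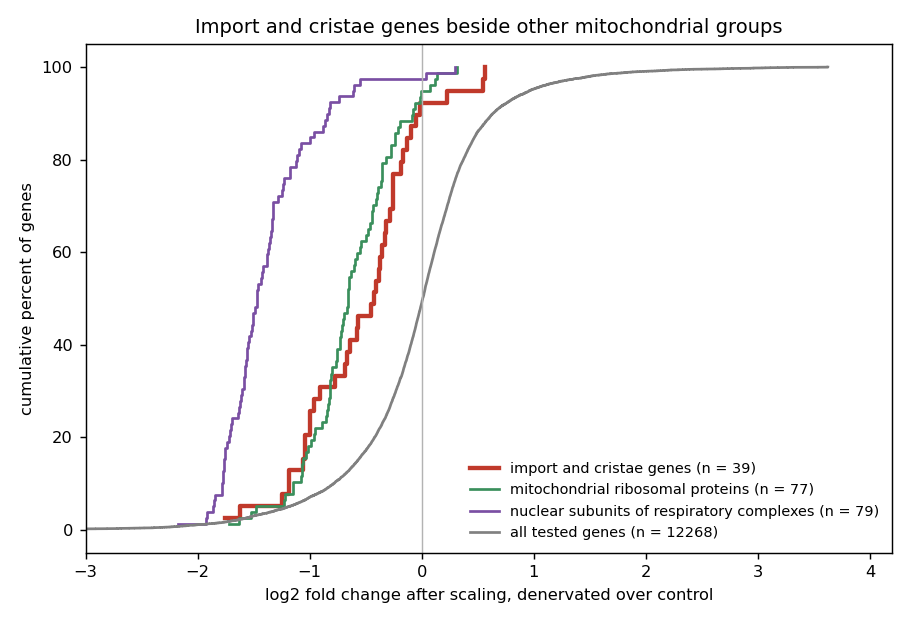
Cumulative share of genes against the log2 fold change after scaling, denervated over control, for the 39 members, 77 mitochondrial ribosomal proteins, 79 nuclear respiratory subunits and all 12268 tested genes. The members' curve lies left of that of all genes and well to the right of the respiratory subunits.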

How the data were processed

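Total RNA of 6 whole biceps, 3 denervated and 3 contralateral, was amplified (Ovation RNA-Seq V2), made into Nextera XT libraries and sequenced in paired ends, per the labels' protocols. kallisto 0.42.1 and the mm10 build are named per the submitters' processing notes, while no source used here states how transcripts were summed to genes. Amplification and library scaling can change apparent levels. The log2 values deposited by the authors carry no unit in the header. They were read as log2(TPM + 1), since none is negative and the linear sums stay below 1000000. The authors' deposited log2 fold changes equal the differences of group means, and their deposited p-value columns were not used for calls.

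Genes at 1 TPM or more in at least 3 of 6 libraries were tested (12268 of 13105) by limma 3.58.1 (R 4.3.3), using its moderated test with a mean-variance trend and Benjamini-Hochberg adjustment over all tested genes and calls at 0.05. The fit was run on the deposited values and on log2(TPM divided by a median-of-ratios size factor, plus 1). Tested on simulated data, it recovered 64% of 100 genes changed by 1 and 92% of 100 changed by 2 on the log2 scale. This was among 12268 genes, with 15 false calls. The simulated libraries were independent, few genes changed, the typical gene did not shift and nothing was scaled. Those rates therefore do not describe the calls made here. The labels number the mice, so each denervated muscle has its own control, and the deviations of such pairs from the group means correlated over genes (0.312, 0.183 and 0.411), so a fit with the mouse as a block was also run. Without the block, the limma p-values rest on the spread between the 3 libraries within each group, moderated over all tested genes. That fit treats the 6 libraries as independent. Only the fit with the block uses the differences within mice.

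Per-library values are given for members called on both scales, for the members at each end of the scaled changes, and for a fixed set of core subunits, while other members are given as means. The members and lists were chosen with earlier results of these data known. Ratios and shares within libraries were compared by exact two-sided permutation tests (numpy 2.4.6). These tests treated the 6 libraries as independent, although each mouse gave 2 muscles. Gene models came from GENCODE (GRCm38), where words of 31 bases shared between genes were counted, and promoter windows from RefSeq (GRCm38.p6). Pseudocounts of 0.1 and 5, no filter, upper-quartile scaling, and leaving out each library or mouse were tried as alternatives.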

Additional observations from a re-analysis of the deposited data

How the results depend on the processing

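Pseudocounts of 0.1 and 5, no filter, the replicate block and upper-quartile scaling kept all 5 members called on both scales, and the block added Tomm40l as lower (adjusted p = 0.0497 on the deposited scale, limma). The block, which pairs the muscles of a mouse, otherwise added only the calls of Timm8b and Timm10b named above on the deposited scale. Chchd10 and Chchd3 stayed called in every setting run. Leaving out libraries or mice moved counts more. Over all tested genes, 938 to 1825 were then called higher after scaling and on both scales, and 1322 to 2277 lower after scaling. Among members, 10 to 18 were called higher on the deposited scale, 0 to 2 higher after scaling and on both scales, and 16 to 24 lower after scaling. Among partners, 0 to 2 were called higher after scaling and on both scales, and 19 to 29 lower after scaling, and upper-quartile scaling gave 2 higher on each. The members' scaled median was -0.46 with a pseudocount of 0.1, -0.33 with 5, -0.37 with upper-quartile scaling and -0.46 to -0.39 without single libraries or mice. Values near 0 changed sign without being called. With upper-quartile scaling Pam16 came to 0.052 and Chchd5 to 0.0026 on the scaled values. Without single libraries or mice, Pam16 ran from -0.15 to 0.20, Chchd5 from -0.13 to 0.014 and Tomm7 from -0.23 to 0.0055 on the scaled values, and Chchd1 from -0.14 to 0.099 and Timm23 from -0.16 to 0.018 on the deposited values. The cause was not tested. The files give no read counts, so the precision of low members such as Chchd6 cannot be stated beyond the spread of 3 libraries.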
